A study of Saccharomyces cerevisiae with 6 samples.

Results

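RNAs bound by a complete ribosome in a yeast translation extract were compared with the RNA pool that went into the extract. The comparison covers the well represented RNAs, those with at least 1000 FPKM in the input library. FPKM usually means a count of sequenced fragments divided by RNA length and by the reads of the library. How it was computed here is not stated. The rule took 5950 of the 6962 RNAs (85.5%), from 3785 of 4134 genes. Each RNA is named by its gene and by a number, read as the length in nucleotides (nt) of its leader, the part of an mRNA upstream of the start codon. Leaders of the 5950 RNAs spanned 13 to 115 nt (median 45 nt). The RNAs were transcribed with T7 RNA polymerase, capped and put into an extract of budding yeast (Saccharomyces cerevisiae), per the labels. The groups were 3 libraries of the 80S fraction of a sucrose gradient, 2 libraries of its untranslated fraction, and 1 library of the input RNA. The pulldown label of both fractions names phenol and chloroform extraction with a biotin pulldown, and that of the input names the extraction alone. Ribosome binding and the biotin pulldown therefore cannot be told apart in a ratio to the input. Nothing in the labels says whether the libraries of a fraction came from separate extracts, so the spread between them, and any p-value, may be technical. Median FPKM of the 5950 RNAs was 2709, 2584 and 2641 for the 3 80S libraries, 2496 and 2379 for the untranslated ones, and 3623 for the input. Read depth is unknown, because the values are not counts.

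In yeast, the small ribosomal subunit is recruited near the cap of an mRNA and moves along the leader until it meets a start codon, where the large subunit joins to form the 80S ribosome. Leaders differ in length, base composition, folding and upstream start codons, and each of these is known to affect how readily an mRNA is translated. The 80S fraction of a sucrose gradient holds mRNAs on which this joining has taken place.

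Of the leader features examined, the share of C ran most closely with the ratio of 80S to input, and the sequences below show both ends of its range. They are the 4 leaders with the highest and then the 4 with the lowest share of C among the 601 well represented RNAs with leaders of 25 to 30 nt, which can be shown whole. They were chosen by sequence, after the relation with C had been seen. All sequences are bases of the reference genome R64 (RefSeq), given as DNA in the sense of the RNA, 5′ to 3′, and the RNAs actually synthesised could deviate from the reference. Capitals mark runs of 2 or more C.
SWH1, chrI:192590-192618, plus strand: aaagtacaCCtttcaCCCCtCCacacaCC
CIN1, chrXV:989762-989788, plus strand: aCCacacgcactttacaCCCttcaatc
SLM2, chrXIV:541882-541910, minus strand: atacgctttaCCCagCCgtCCattgcaCC
ACP1, chrXI:80538-80562, minus strand: aactcaatacagcaCCttCCttgCC
RKM3, chrII:298264-298291, plus strand: aattaaaaaataaatttgaaagagtgag
SAS10, chrIV:183019-183044, minus strand: atattagagtgggtgtatagaataat
PEX14, chrVII:216248-216272, plus strand: agagaagttgtaaggtgaataagga
PEP3, chrXII:434611-434640, plus strand: aagaagtaaaaagagaaatatagggatata

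The 4 C-rich leaders were lower in each 80S library than in the input. SWH1, an oxysterol-binding protein homologue, has 14 C in 29 nt and stood at 228, 177 and 240 FPKM in 80S, against 3917 in the input. SLM2, a phosphoinositide-binding protein, has 12 C in 29 nt and stood at 1096, 649 and 822 FPKM in 80S, against 5560 in the input. CIN1, a tubulin folding factor, was 2.96-fold lower in 80S than in the input, and ACP1, the mitochondrial acyl carrier protein, was 2.44-fold lower. In the untranslated fraction SWH1 stood at 824 and 265 FPKM, SLM2 at 1901 and 974, CIN1 at 1088 and 1516, and ACP1 at 485 and 423. The inputs of CIN1 and ACP1 were 1525 and 1387 FPKM. All 4 were thus below the input in both fractions, and the untranslated values of ACP1 overlapped its 80S values of 567, 443 and 732 FPKM. The 4 leaders without C were above the input in each 80S library. RKM3, a lysine methyltransferase of a ribosomal protein, stood at 7193, 8003 and 6730 FPKM in 80S, against 2289 in the input. PEP3, a vacuolar tethering protein, was 2.45-fold higher in 80S, and SAS10, of the small subunit processome, was 1.63-fold higher. PEX14, of the peroxisomal import machinery, was nearest to its input level, with 1716, 1800 and 1727 FPKM in 80S against 1644 in the input. In the untranslated fraction RKM3 stood at 1004 and 1229 FPKM, SAS10 at 506 and 642, PEX14 at 1478 and 1585, and PEP3 at 1396 and 1685.

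Of the 5950 RNAs, 407 were gained in 80S and 1636 were lost. Gained means a ratio of (FPKM + 1) to the input of at least 2 in each of the 3 80S libraries, and lost means a ratio of at most 0.5 in each. Gained RNAs were 6.84% of the 5950, beside 11.1% of all 6962 RNAs, and lost RNAs were 27.5%, beside 24.2%. The input level chose these RNAs and is the denominator of the ratio, so nothing is read from those shares. No p-value of a single RNA is given against the input, which is 1 library. The gained RNAs came from 356 genes and held 16.7%, 18.6% and 17.0% of the summed FPKM of the 80S libraries, 6.24% and 7.54% of that of the untranslated libraries, and 5.30% of that of the input. The lost RNAs came from 1322 genes and held 9.71%, 8.55% and 9.94% of the summed FPKM in 80S, 31.2% and 27.0% in the untranslated fraction, and 32.5% in the input. The 3907 other RNAs were in neither class.

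Among well represented RNAs large losses outnumbered large gains, and the input threshold bears on this. At least 4-fold differences in each 80S library were found for 32 RNAs on the higher side and 504 on the lower side, beside 197 and 512 over all 6962 RNAs. At least 8-fold differences were found for 3 and 87 RNAs, beside 63 and 87 over all. At 16-fold the well represented RNAs gave 0 higher and 8 lower, and all RNAs 15 higher and 8 lower. The mean log2 ratio ran between -4.89 and 4.30, a 581-fold span, with an SD of 1.20 over RNAs. Within an RNA the 3 80S libraries lay close together, with a median SD of the log2 ratio of 0.18. Pearson's r of log2 FPKM over the 5950 RNAs was 0.970, 0.978 and 0.970 for pairs of 80S libraries, and 0.539, 0.480 and 0.559 for 80S replicates 1, 2 and 3 with the input. The balance of gains and losses depends on the scaling. The median log2 ratio was -0.35, -0.48 and -0.41 in 80S replicates 1, 2 and 3, and rescaling each library by median ratios over all RNAs moved the median of the mean ratio up by 0.24. After rescaling, 686 RNAs were gained and 1307 lost, so that gained RNAs made up 34.4% of both classes together, against 19.9% before. Over all 6962 RNAs, 1121 were gained and 1346 lost after rescaling, and gained RNAs made up 45.4% of both classes, against 31.4% before. A limma fit that lends the input the spread of the fractions placed 933 of the 5950 RNAs (15.7%) above and 2228 (37.4%) below the input at 0.05 after adjustment, beside 20.1% and 33.2% of all RNAs. Since that 1 library chose the RNAs and has no replicate, these counts are no test and nothing is read from them.

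**Figure D1:**
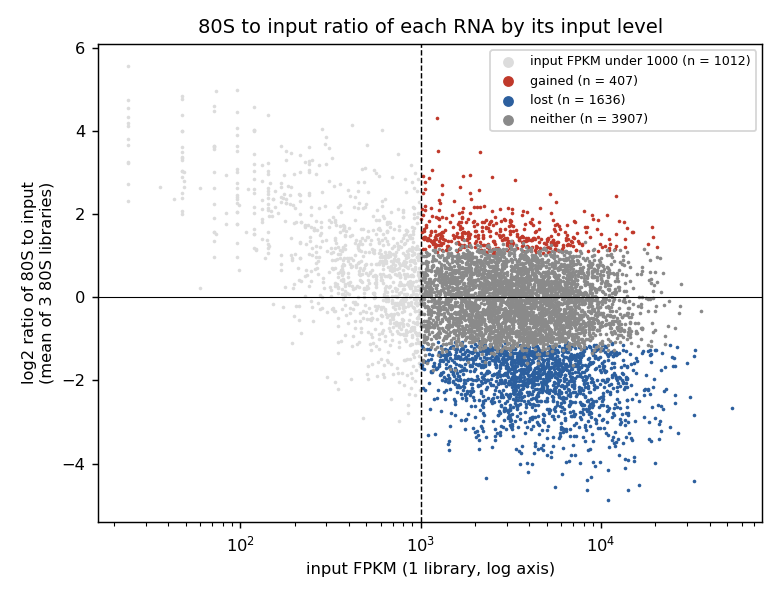
Log2 ratio of 80S to input (mean of 3 80S libraries, vertical axis) against input FPKM (1 library, log axis), 1 point for each RNA. The dashed line at 1000 FPKM is the threshold: to its right 407 RNAs are gained and 1636 lost, and to its left 364 of 1012 RNAs meet the rule for gained.

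The threshold set aside RNAs that were mostly higher in both fractions than in the input. Of the 1012 RNAs under 1000 FPKM in the input, 364 met the rule for gained and 50 the rule for lost, with a median log2 ratio of 0.78. Input values at the low end were coarse, since 12 RNAs with leaders of 13 to 102 nt shared the lowest value of 23.9 FPKM. The threshold is 41.8 times that value. Of 199 input values under 10 times the lowest, 56.8% lay within 0.01 of a whole multiple of it. The 12 shared values thus do not look divided by a length that varies with the leader. Just inside it lay HCH1 (19 nt), RRP4 (14 nt) and AFR1 (16 nt), each at 1001 FPKM in the input, with log2 ratios of 1.87, 0.61 and -0.35. Just outside lay VPH2 (54 nt) at 999 FPKM, and BBP1 (16 nt) and NAR1 (47 nt) at 997 FPKM, with log2 ratios of 0.23, -0.33 and -2.22. The ratio also went down with the input level above the threshold. Split into 3 classes of near-equal size by input, the lowest class (1001 to 2636 FPKM) held 204 gained and 376 lost RNAs, the middle class 108 and 566, and the highest class (5022 to 53274 FPKM) 95 and 694. The input is on both axes of this trend, and the part of errors in the single input library was not tested. The highest input values belonged to YJR112W-A (20 nt, 53274 FPKM), ASK10 (49 nt, 35653 FPKM) and RMI1 (38 nt, 33254 FPKM), whose log2 ratios were -2.66, -0.32 and -1.26.

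The most gained RNA was that of YNL050C, a gene known by its locus tag, with a leader of 19 nt. The leaders of at most 30 nt with a known sequence among the 12 most gained and the 12 most lost RNAs are shown whole, apart from SWH1 above. The first and the second belong to gained RNAs and MDL2 to a lost one. Capitals again mark runs of 2 or more C.
YNL050C, chrXIV:534983-535001, minus strand: attgaaattcagtataaaa
DYN2, chrIV:1319842-1319867, minus strand: ataaagaagagcaaattaaaaCCaaa
MDL2, chrXVI:30459-30481, plus strand: atgtCCCatcatcgCCaatcgca

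YNL050C stood at 23477, 30978 and 19633 FPKM in 80S, 2096 and 2060 in the untranslated fraction, and 1234 in the input. HXT4 (75 nt), a glucose transporter, stood at 21853, 26843 and 23719 FPKM in 80S, 4784 and 3834 in the untranslated fraction, and 2135 in the input, an 11.3-fold gain. Both were higher in each 80S library than in any other library. ATG17, a scaffold of autophagosome formation, had 2 leaders among the 12. Its 36 nt leader stood at 13321, 17934 and 12041 FPKM in 80S, 13299 and 13277 in the untranslated fraction, and 1249 in the input. That leader was gained 11.4-fold against the input while the 80S and untranslated libraries overlapped. Its 52 nt leader stood at 11974, 13324 and 13341 FPKM in 80S, 2517 and 2263 in the untranslated fraction, and 1715 in the input, so for this leader the fractions did not overlap. CLU1 (96 nt), a mitochondrial distribution protein found with initiation factor eIF3, resembled the 36 nt leader: it was 7.02-fold above the input in 80S, yet its untranslated values of 14717 and 23364 FPKM overlapped its 80S values of 21886, 26658 and 21588. Further RNAs of the 12 were DYN2 (26 nt), a dynein light chain, LEU1 (55 nt), an enzyme of leucine synthesis, YDR271C (27 nt), PUP3 (110 nt), a proteasome subunit, CRP1 (39 nt), a DNA-binding protein, and IFA38 (53 nt), an enzyme of fatty acid elongation. Their gains over the input lay between 6.52-fold for IFA38 and 7.64-fold for DYN2.

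The most lost RNA was MNN4 (61 nt), which is needed for mannosylphosphate transfer to cell wall glycans. It stood at 343, 364 and 398 FPKM in 80S, 783 and 817 in the untranslated fraction, and 10896 in the input, a log2 ratio of -4.89 ± 0.11 (SD over 3 80S libraries). It was thus far below the input in both fractions. MCM4 (76 nt), a subunit of the replicative helicase, stood at 382, 378 and 415 FPKM in 80S, 2218 and 1804 in the untranslated fraction, and 8306 in the input. SOM1 (39 nt), a subunit of the mitochondrial inner membrane peptidase, stood at 801, 571 and 746 FPKM in 80S, 5820 and 4905 in the untranslated fraction, and 16144 in the input. For both of these the 80S libraries were the lowest and the untranslated libraries lay between them and the input. MDL2 (23 nt), a mitochondrial ABC transporter, had 9 C in its leader and the widest spread of the 12, with 386, 133 and 251 FPKM in 80S, 1016 and 269 in the untranslated fraction, and 5579 in the input. YLR112W (43 nt) had 252, 315 and 420 FPKM in 80S, and its untranslated libraries, at 1299 and 165 FPKM, lay on both sides of them. The remaining RNAs of the 12 were YHR071C-A (47 nt), DFM1 (50 nt), of ER-associated degradation, ECM30 (56 nt), ALE2 (78 nt), GGA2 (38 nt), a clathrin adaptor, SWH1 (29 nt) and BBC1 (76 nt), of cortical actin patches. They were lost between 17.8-fold for BBC1 and 24.8-fold for DFM1 and YHR071C-A. All 24 RNAs at the ends, 12 gained and 12 lost, kept their class when libraries were rescaled. This was fixed in advance, since rescaling moves a mean log2 ratio by about 0.24 and these RNAs lay much further from the limits. With any 1 80S library left out they also keep their class by construction, since the rule asks for the ratio in each library.

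**Figure D2:**
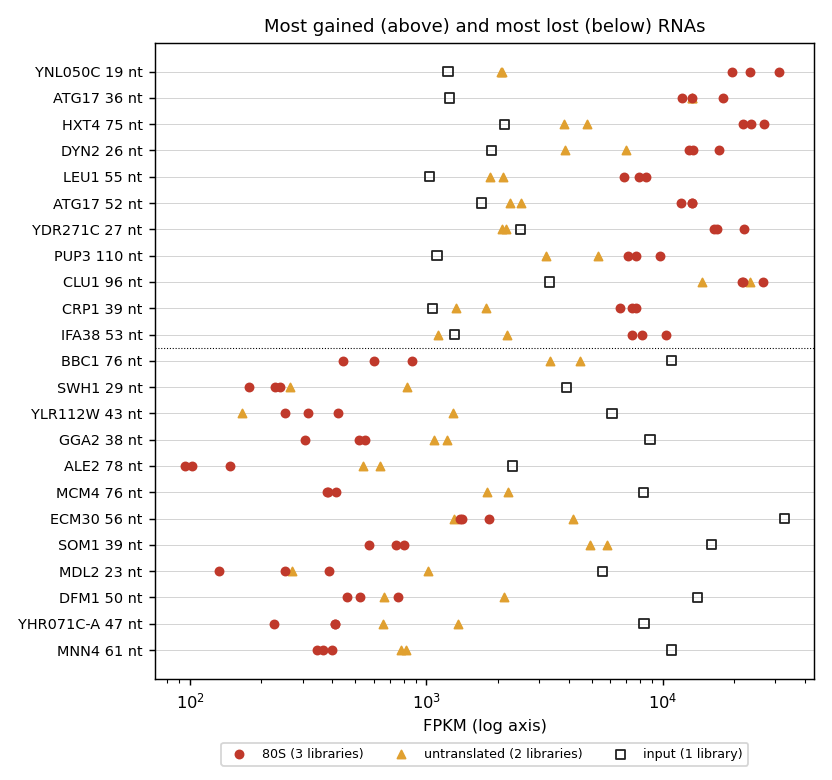
FPKM (log axis) of the most gained RNAs, above the dotted line, and the 12 most lost, below it, with circles for the 3 80S libraries, triangles for the 2 untranslated libraries and a square for the input. YNL050C has 80S values of 19633 to 30978 FPKM and an input of 1234, MNN4 has 80S values of 343 to 398 and an input of 10896, and the circles and triangles of ATG17 with 36 nt overlap.

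Gained leaders were poorer in C than lost leaders. Leader sequence was known for 5857 of the 5950 RNAs. The median share of C was 13.2% in gained, 20.8% in lost and 17.1% in all of these RNAs. Across the 5857 RNAs Spearman's rho of the share of C with the log2 ratio to input was -0.41, -0.39 and -0.41 in 80S replicates 1, 2 and 3, with 0.11 and 0.08 for the untranslated libraries. RNAs of 1 gene share sequence and all ratios share the input, so these values are a description across RNAs. The rho of the share of C with the input level itself was 0.05.

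The ratio went down step by step with the share of C. In the 1485 leaders with 10 to 15% C the median log2 ratio was 0.09, 0.03 and 0.06 in the 80S libraries, and 13.9% of RNAs were lost. In the 532 leaders with 25 to 30% C it was -1.23, -1.42 and -1.29, and 55.6% were lost. In the 28 leaders with 40% C or more it was -2.22, -2.67 and -2.41, with 82.1% lost and 0 gained. Leaders below 5% C, of which there were 93, were at the other end, with medians of 0.48, 0.33 and 0.32 and 16.1% of RNAs gained. The untranslated libraries did not show this order. Their medians were -0.96 and -1.03 below 5% C, -0.32 and -0.35 at 25 to 30% C, and -0.63 and -1.37 at 40% C or more. The share of G, the pairing partner of C, had a rho of 0.15, 0.10 and 0.13 in the 80S libraries. Their medians were -0.99, -1.21 and -0.98 below 5% G, -0.10, -0.24 and -0.16 at 20 to 25% G, and -0.53, -0.52 and -0.47 at 40% G or more. The share of A gave 0.12, 0.12 and 0.10, and the share of T gave 0.07, 0.10 and 0.11.

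**Figure D3:**
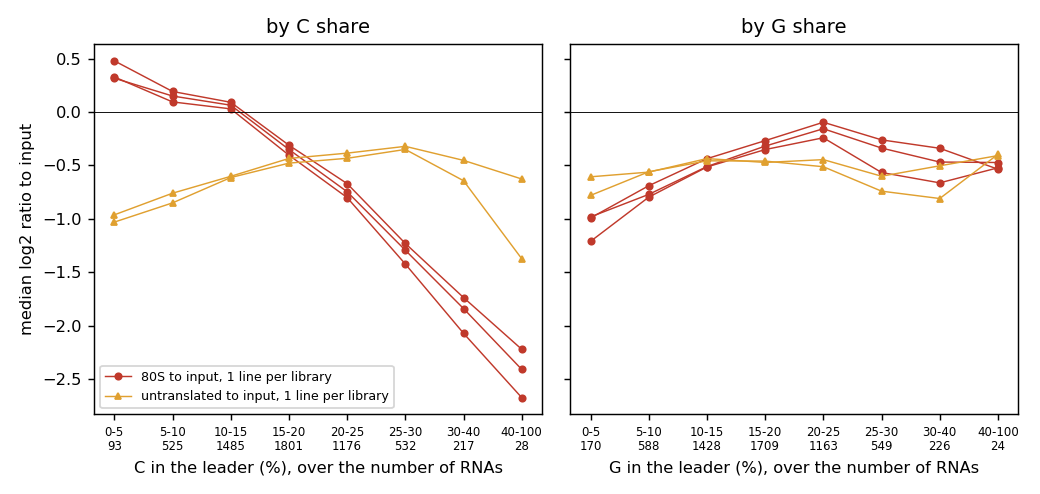
Median log2 ratio to the input of the well represented RNAs in bins of the share of C and of G in the leader, 1 line for each 80S and each untranslated library. The 80S lines for C go down to -2.22, -2.67 and -2.41 at 40% C or more, while those for G lie highest at 20 to 25% G, at -0.10, -0.24 and -0.16.

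Runs of C were looked at after the share of C had been seen. A run of CCC, searched on the strand of the RNA, was found in 18 of 404 gained leaders (4.46%), 535 of 1603 lost leaders (33.4%) and 924 of 5857 leaders in all (15.8%). Over all RNAs with a sequence, above and below the threshold, it was found in 15.7%. The median log2 ratio was -1.43 for leaders with CCC and -0.25 for those without it. CCCC was found in 1 gained and 115 lost leaders. Within bins of the share of C the distance was smaller. In leaders with 10 to 15% C the median log2 ratio was -0.42 for the 74 with CCC and 0.09 for the 1411 without. In those with 15 to 20% C the median log2 ratio was -1.07 for the 262 with CCC and -0.28 for the 1539 without. In those with 20 to 25% C it was -1.34 for 284 with CCC and -0.54 for 892 without, and with 25 to 30% C -1.80 for 183 with CCC and -1.09 for 349 without. Leaders with CCC were longer in each of these bins, with medians of 54 to 77 nt, against 31 to 48 nt without. GGG gave no such distance, with medians of -0.32 with and -0.43 without. Counts of C in the first 13 nt of the leader had a rho of -0.29, -0.27 and -0.29 with the ratio in the 3 80S libraries, and counts in the last 13 nt, next to the start codon, -0.18, -0.17 and -0.19. Both windows were chosen after composition had been seen, and they overlap in leaders under 26 nt.

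The joint share of G and C, which contains the share of C, had a rho of -0.24, -0.27 and -0.26 in the 80S libraries. Leader length had a rho of 0.05, 0.09 and 0.07 in the 80S libraries, and folding energy per nt, computed with ViennaRNA on the leader alone, -0.08, -0.09 and -0.10. The relation with C was present in short and long leaders: rho was -0.34, -0.31 and -0.34 in the 1636 leaders of 13 to 30 nt, and -0.48, -0.48 and -0.49 in the 1782 of 61 to 115 nt. An ATG in the leader, which can start a short upstream reading frame, was present in 17.3% of gained, 11.4% of lost and 14.2% of all 5857 leaders. Among leaders of 61 to 115 nt the median log2 ratio was -0.03 for the 396 with an ATG and -0.35 for the others. At 31 to 60 nt it was -0.26 for the 320 with an ATG and -0.45 for the others. At 13 to 30 nt there was no such gap, with -0.49 both for the 115 with an ATG and for the others. A at position -3, part of the context favoured around yeast start codons, was present in 60.1% of gained, 61.8% of lost and 62.6% of all leaders. Runs of 6 T were found in 7.18% of gained, 3.49% of lost and 4.42% of all leaders, and runs of 6 A in 11.1%, 8.17% and 10.5%.

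Leaders of the same gene often differed in their ratio of 80S to input. Of the 5950 RNAs, 3792 came from 1627 genes with 2 or more of them, and these differ in the extent of the leader as far as their names show. In 24 genes 1 leader was gained and another lost. The longest leader was at least 2-fold higher relative to the shortest in each 80S library in 315 genes and at least 2-fold lower in 232. The median size of the difference was 0.85 on the log2 scale, or 1.80-fold, and its median SD over the 3 80S libraries was 0.20. That SD holds no error of the single input library, whose values enter every difference, so it does not measure how sure a difference is. The sources used here do not say how reads shared by 2 leaders of a gene were assigned. The log2 difference within a gene (longest minus shortest leader) ran with the share of C in the stretch that the longest adds. In 284 genes whose added stretch held less than 10% C, the longer leader had a median log2 difference of 0.61, with 84 genes at least 2-fold higher and 15 lower. In 100 genes whose added stretch held 30% C or more the median difference was -0.70, with 4 genes higher and 35 lower.

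The 5 genes with the largest difference between 2 of their well represented leaders were MCM3, DFM1, ORC2, SHC1 and DAD2. SHC1 had 2 such leaders. The other genes had 3 each, of which 2 are compared here. The added stretches of DFM1, SHC1 and DAD2 fit within 30 nt and are shown whole, with capitals for runs of 2 or more C.
DFM1, the 73 nt leader beyond the 50 nt leader, chrIV:1294445-1294467, minus strand: aaggcaaaatacaacaaattaCC
SHC1, the 111 nt leader beyond the 99 nt leader, chrV:351587-351598, plus strand: gaataaaaaatt
DAD2, the 68 nt leader beyond the 48 nt leader, chrXI:596871-596890, minus strand: aCCtgCCtctgaatatatct

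SHC1, an activator of chitin synthesis in sporulation, differed by 12 nt without C. Its 111 nt leader stood at 25387, 26472 and 27249 FPKM in 80S and 13302 in the input, and its 99 nt leader at 1069, 772 and 1190 FPKM in 80S and 11898 in the input. The inputs were alike and the 80S values did not overlap, a 23.7-fold difference of ratios. ORC2, of the origin recognition complex, likewise had similar inputs. Its 92 nt leader stood at 27264, 31587 and 26426 FPKM in 80S and 12099 in the input, and its 23 nt leader at 1126, 1018 and 1332 FPKM in 80S and 12336 in the input. DAD2, of the DASH complex of the kinetochore, went the other way with length. Its 48 nt leader stood at 4567, 6108 and 3724 FPKM in 80S and 1249 in the input, and its 68 nt leader, whose added stretch holds 6 C, at 1970, 2275 and 2358 FPKM in 80S and 12575 in the input. MCM3, of the replicative helicase, had the largest difference, 35.5-fold, in favour of the 21 nt leader over the 84 nt leader, whose added 63 nt hold 20 C. The 21 nt leader stood at 8036, 6800 and 7134 FPKM in 80S and 1307 in the input, and the 84 nt leader at 621, 303 and 494 FPKM in 80S and 2888 in the input. DFM1 had a 31.8-fold difference in favour of 73 nt over 50 nt. Its 73 nt leader stood at 1632, 1695 and 1580 FPKM in 80S and 1273 in the input, and its 50 nt leader at 524, 461 and 757 FPKM in 80S and 14072 in the input. For DFM1 and DAD2 the inputs of the 2 leaders compared lay further apart than their 80S values, so most of the difference of ratios is in the single input library.

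**Figure D4:**
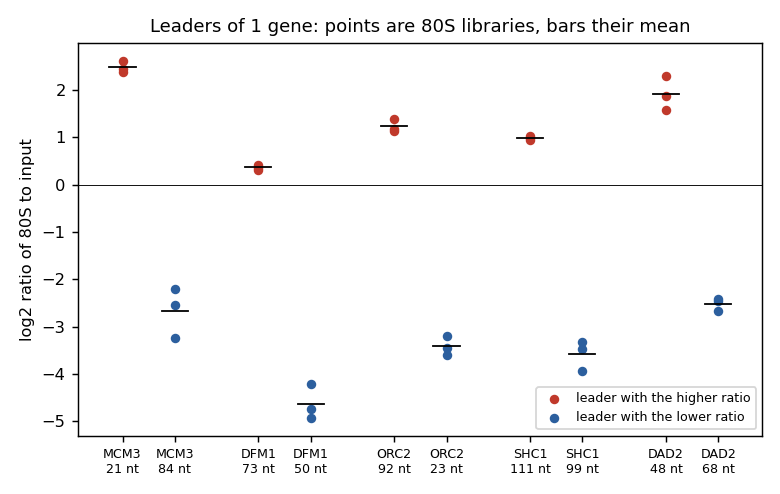
Log2 ratio of 80S to input in each 80S library for the 2 leaders compared in each of the 5 genes with the largest difference. The higher leader is left of the lower one, with a bar at the mean. For MCM3 the 21 nt leader is near 2.48 and the 84 nt leader near -2.67.

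The contrast of 80S with the untranslated fraction was not used to choose the RNAs. In a limma fit to all RNAs and libraries, with Benjamini-Hochberg adjustment over all 6962 RNAs at 0.05, 2353 of the 5950 RNAs (39.5%) exceeded their untranslated level in 80S and 1898 (31.9%) were below it. The shares over all RNAs, most of which are these 5950, were 38.6% and 31.8%. Among the 1012 RNAs under the threshold 33.2% were higher and 31.3% lower, so higher calls were fewer there and lower calls about as frequent. Higher calls were 55.4% of the calls, and 50.6% after rescaling. For classes made from the ratio of 80S to input, this contrast shares the 80S libraries, and its values stand beside the others as a description. Of 407 gained RNAs, 354 were called higher in 80S against the untranslated fraction and 7 lower. Of 1636 lost RNAs, 1084 were lower and 119 higher. Those 119 include SDH3 (27 nt), a subunit of succinate dehydrogenase, with 1000, 832 and 1299 FPKM in 80S, 518 and 154 in the untranslated fraction, and 7159 in the input. HCH1 (19 nt), a regulator of the Hsp90 chaperone, was among the 7, with 3811, 3885 and 3345 FPKM in 80S, 10053 and 8794 in the untranslated fraction, and 1001 in the input.

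Functional lists of genes, chosen with earlier results of these data known, are described by their counts beside 6.84% gained, 27.5% lost and a median log2 ratio of -0.42 over the 5950 RNAs. Of 62 RNAs of small ribosomal subunit proteins, 6 were gained and 14 lost, and of 80 of large subunit proteins, 6 and 18, with medians of -0.36 and -0.32. Many of these genes have a near-identical copy, and no source used here tells how reads were split between copies. The extremes were RPS18B (22 nt), gained 4.33-fold with 4451, 5403 and 3605 FPKM in 80S and 1021 in the input, and RPL4B (32 nt), lost 12.8-fold with 684, 566 and 734 FPKM in 80S and 8446 in the input. Of 94 RNAs of mitochondrial ribosomal proteins, 9 were gained and 20 lost, among them RSM7 (55 nt) at 4.49-fold higher and MRPS28 (63 nt) at 11.2-fold lower than the input. Initiation factors gave 5 gained and 12 lost of 38. GCN3 (106 nt), a subunit of eIF2B, was gained 4.31-fold, CDC33 (80 nt), the cap-binding protein eIF4E, was gained 2.68-fold, and GCD1 (44 nt), another eIF2B subunit, was lost 12.6-fold. Elongation and termination factors had the lowest median of all lists, -1.14, with 1 gained and 11 lost of 23. HYP2 (41 nt), which encodes eIF5A, stood at 357, 236 and 286 FPKM in 80S and 2593 in the input, and SUP35 (18 nt), release factor eRF3, was lost 7.87-fold. The median share of C in this list was 22.2%, against 17.1% in all RNAs. In the contrast with the untranslated fraction, 7 of the 23 were higher and 12 lower in 80S. The shares in that contrast were 39.5% higher and 31.9% lower for the 5950 RNAs, and 38.6% and 31.8% for all 6962. Aminoacyl-tRNA synthetases gave 3 gained and 10 lost of 36. GUS1 (15 nt), glutamyl-tRNA synthetase, was lost 7.76-fold although its leader holds only 6.67% C. It was at 528, 1136 and 896 FPKM in 80S, 19103 and 13962 in the untranslated fraction, and 6314 in the input.

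Lists of metabolism lay on both sides of the overall median of -0.42. Enzymes of the tricarboxylic acid cycle had the highest median of the 22 lists, 0.12, with 2 gained and 4 lost of 23, and 15 of the 23 were higher in 80S than in the untranslated fraction and 4 lower. CIT1 (100 nt), citrate synthase, was gained 3.07-fold, and IDP1 (17 nt), isocitrate dehydrogenase, was lost 7.17-fold. Glycolysis and fermentation gave 2 gained and 5 lost of 29: GPM3 (63 nt) was gained 4.36-fold, with 9.52% C, and CDC19 (27 nt), pyruvate kinase, was lost, with 901, 580 and 969 FPKM in 80S and 5109 in the input. Respiratory chain and ATP synthase genes gave 4 gained and 11 lost of 52. Amino acid biosynthesis gave 7 gained and 37 lost of 119, with LEU1 at the upper and BAT1 (21 nt), a branched-chain transaminase, at the lower end, at 336, 180 and 275 FPKM in 80S and 4114 in the input. Of 51 RNAs of nucleotide synthesis, 0 were gained and 15 lost, with a median of -0.73. Its highest member, URA8 (44 nt), CTP synthase, was 1.84-fold above the input and RNR2 (50 nt), of ribonucleotide reductase, 7.68-fold below. Ergosterol synthesis gave 1 gained and 8 lost of 34, with ERG26 (70 nt) at 6529, 8117 and 8483 FPKM in 80S and 1533 in the input.

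Among cellular machines, the proteasome had 9 gained and 11 lost of 52 RNAs, a gained share of 17.3%, and a median of -0.04. PUP3 (110 nt) stood at 7702, 9790 and 7104 FPKM in 80S, 3203 and 5325 in the untranslated fraction, and 1108 in the input. PUP1 (65 nt), another subunit, stood at 1783, 1657 and 1308 FPKM in 80S, 13115 and 16114 in the untranslated fraction, and 7914 in the input. Cell wall genes lay at the other end, with 3 gained and 18 lost of 41 and a median of -0.97. CIS3 (37 nt) and CCW12 (43 nt), both cell wall mannoproteins, were lost 14.3-fold and 9.41-fold, and KNH1 (96 nt), of glucan synthesis, was gained 2.99-fold. Nuclear pore genes gave 1 gained and 12 lost of 35, with a median of -0.70. Chaperones gave 5 gained and 19 lost of 63, with HSC82 (27 nt), an Hsp90, gained 4.42-fold and ZUO1 (32 nt), a ribosome-associated chaperone, lost 14.8-fold. Vacuolar ATPase genes gave 2 gained and 4 lost of 23, vesicle coats 5 and 8 of 49, histones 0 and 4 of 10, cell cycle genes 0 and 5 of 15, and the mating response 0 and 10 of 28. The histones had no gained RNA although their median share of C, 12.9%, was the lowest of all lists. Genes known for upstream reading frames gave 1 gained and 3 lost of 25 with a median of 0.04. DCD1 (32 nt), dCMP deaminase, was gained 5.96-fold with an ATG in its leader. IMD4 (76 nt), IMP dehydrogenase, stood at 2234, 2407 and 2231 FPKM in 80S, 27757 and 29575 in the untranslated fraction, and 8838 in the input. The 76 nt leader of IMD4 holds no ATG, so this RNA does not show an upstream reading frame that starts with ATG. Every list held both RNAs above and RNAs below the input, and rescaling raises each median by close to 0.24, which turns the sign of several small ones.

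**Figure D5:**
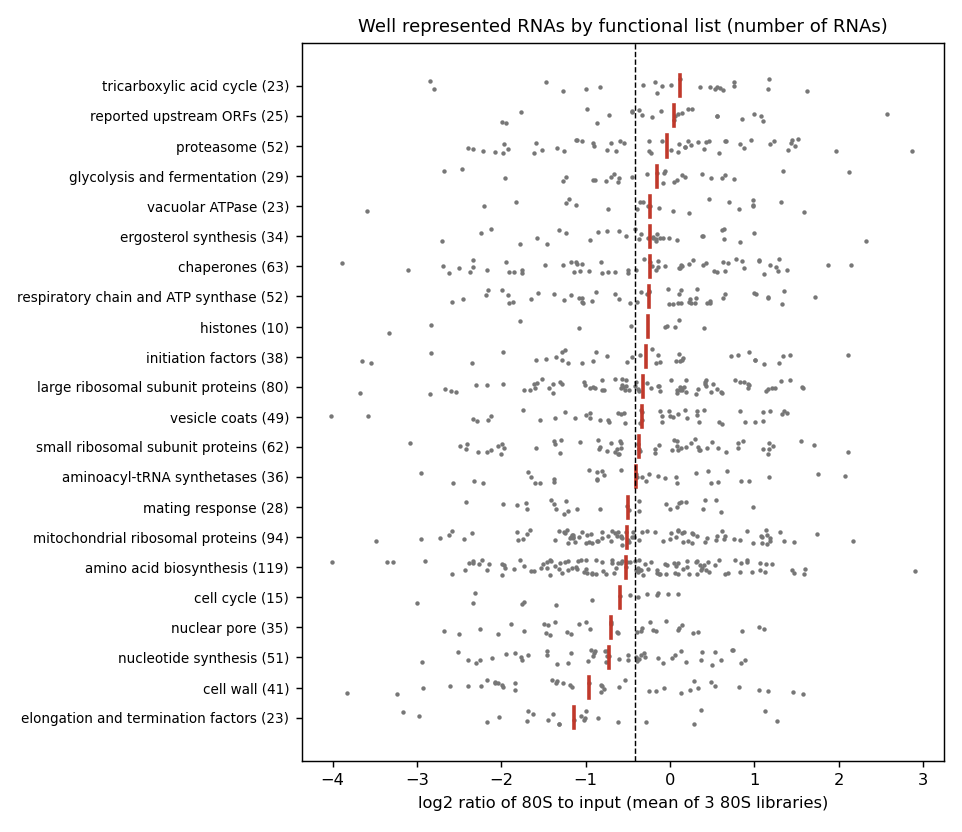
Log2 ratio of 80S to input (mean of 3 80S libraries) of each RNA in the 22 gene lists, with a red bar at the median of each list and a dashed line at the median of all 5950 RNAs, -0.42. List medians lie between -1.14 for elongation and termination factors and 0.12 for the tricarboxylic acid cycle, and members of a list spread widely around them.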

How the data were processed

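The authors deposited 1 table of FPKM, per the file headers, for 6962 RNAs in 6 libraries. The submitters' processing notes list cutadapt and STAR and give no version. How FPKM was computed, on which build, and how shared reads were treated is not given in the sources used here. An FPKM is relative to its library, so a higher value for some RNAs lowers others, and depth is unknown. Groups and replicate numbers are those of the labels. The threshold, the members and the gene lists were chosen with earlier results of these data known.

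Ratios were formed per 80S library as log2 of (FPKM + 1) over (input FPKM + 1), which understates the change of low RNAs. limma 3.58.1 (R 4.3.3) was run on log2(FPKM + 1) of the 6 libraries and all RNAs, with group means and a trended variance (3 residual and 5.15 prior degrees of freedom). On simulated data with 200 of 6962 RNAs changed 4-fold it called 88.0% of them for 80S against untranslated, and 2.22% of its calls were false. In the data 38.6% of RNAs were called higher and 31.8% lower, far more than were changed in the simulation. These rates therefore need not hold for the data. Leaders were read from R64 (RefSeq) as the named number of bases upstream of the annotated start codon, for 6855 RNAs (98.5%). Their first base was A in 78.3%, beside a mean A share of 40.5%. Python 3.11.15, pandas 2.3.3, scipy 1.17.1 and ViennaRNA 2.7.2 were used. RNAs named are the 12 most gained and 12 most lost, the 2 highest and 2 lowest of each list (not all printed, and 1 of the most gained is not reported here), the 5 largest within-gene differences, the 3 on each side of the threshold and the 3 with the highest input. Leaders of 25 to 30 nt were added by sequence, and SDH3 and HCH1 were picked from these names for the contrast with untranslated after their values were seen. Alternatives were other input thresholds, fold rules and pseudocounts, rescaling by median ratios, 1 RNA per gene, a filter, no trend, a fit without the input, a replicate block and leaving out each library.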

Additional observations from a re-analysis of the deposited data

How the results depend on the processing

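Of the counts of gained and lost RNAs, the median ratio and the count of genes with opposite leaders, those that moved were the following. An input of at least 2000 FPKM gave 260 gained RNAs, a median log2 ratio of -0.50 and 10 genes with 1 leader gained and another lost. Rescaling by median ratios gave 686 gained RNAs, a median of -0.18 and 37 such genes. A 1.5-fold rule gave 887 gained RNAs and 111 such genes, a 4-fold rule 32 gained, 504 lost and 1 such gene, and a 2-fold rule on the mean ratio 45 such genes. With 1 RNA per gene, which by its construction keeps fewer RNAs, 223 were gained, the median was -0.48, and limma called 1493 higher and 1224 lower against untranslated. limma counts against the input rest on 1 library that also chose the RNAs, so they are no test: 933 higher, and 540 with 1 RNA per gene. Leaving out 1 80S library gave 444 to 488 gained, 1682 to 1758 lost, medians of -0.45 to -0.39 and 28 to 34 such genes. The counts of RNAs and genes could not fall here, since the rule then asks for the ratio in fewer libraries. Leaving out 1 80S or untranslated library, limma called 2072 to 2458 higher and 1723 to 2022 lower against untranslated. With the replicate number as a block limma called 2432 higher and 1960 lower against untranslated. Same-numbered 80S and untranslated libraries deviated from their group means with r of 0.09 and 0.53 over 2 pairs, so the numbers are not taken to pair them. Of 127 named RNAs, rescaling moved 73 by more than their SD. Rescaling adds close to 0.24 to the mean log2 ratio of every RNA, so these 73 are the ones with a small SD. CLB6 (94 nt), in neither class at a log2 ratio of -0.03, was the 1 of the 127 that changed sign. Its log2 ratio was 0.03 without 80S replicate 1, 0.0020 without 80S replicate 2 and 0.21 after rescaling. Without counts, no counting error can be given, and the single input library limits every ratio to it.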
